A study of Rattus norvegicus with 11 samples.

Results

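The miR-148 and miR-152 family consists of 3 microRNA genes in the rat, Mir148a, Mir148b and Mir152, whose 3p strands carry the same seed. Its members were taken by name from a table of microRNA levels in rat liver: every row called miR-148a, miR-148b or miR-152, from either arm of the hairpin. This gave 6 of the 1331 rows, namely the 3p and 5p strands of each gene, and all 6 were among the 535 rows that averaged 1 or more in counts per 1000000 reads (CPM). The libraries came from livers of male Sprague-Dawley rats, an outbred strain, that were 4 weeks old at the start. In the Control group, 6 rats ate standard chow and received 0.9% saline by vein. In the TPN group, 5 rats received total parenteral nutrition, in which nutrients enter the blood directly and bypass the gut. Both treatments lasted 7 days, and each rat gave 1 library, named here by its group and number. The feeding route and the diet changed together, so their parts in any difference cannot be told apart. The series concerns a rat model of the liver disease that accompanies intestinal failure.

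A microRNA is cut as a short duplex from a hairpin transcript, and usually 1 strand of the duplex is loaded into an Argonaute protein while the other is degraded. The loaded strand pairs with messenger RNAs mainly through its seed, bases 2 to 8 counted from the 5′ end, and lowers their translation or stability. Strands with the same seed can bind the same sites, so the 3p strands of this family have overlapping targets. In mouse liver and human cells, miR-148a-3p represses the low-density lipoprotein receptor and the cholesterol exporter ABCA1, and family members repress the DNA methyltransferase DNMT1.

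The mature sequences are shown because the seed is what groups the members, and the few bases outside it are all that separates reads of the 3p strands. They are from RefSeq for the GRCr8 assembly, 5′ to 3′, with bases 2 to 8 in capitals. RefSeq gave 5 of the 6 members, and miR-148b-5p is given by name only.
miR-148a-3p: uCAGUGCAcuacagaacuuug
miR-148b-3p: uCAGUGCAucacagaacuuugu
miR-152-3p: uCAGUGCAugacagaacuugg
miR-148a-5p: aAAGUUCUgagacacucugacuc
miR-152-5p: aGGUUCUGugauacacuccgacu

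Over the 21 bases that the 3p strands have in common, counted from the 5′ end, miR-148a-3p differed from miR-148b-3p by C9U and U10C. It differed from miR-152-3p by C9U, U10G and U20G, and miR-148b-3p differed from miR-152-3p by C10G and U20G. How reads of such near-identical strands were divided between rows is not given in the sources used here. The reads of miR-148b-3p were 0.154% to 0.486% of those of miR-148a-3p in the same liver, and those of miR-152-3p 0.124% to 0.359%, so their levels are uncertain. The 5p strands of miR-148a and miR-152 have seeds other than that of the 3p strands and do not share the targets of the 3p strands through them. The seed of miR-148b-5p was not compared, since its mature sequence was not given.

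The Mir148a hairpin is shown because both of its arms were measured at levels far apart. It lies on the minus strand at chr4:81664431-81664527 (GRCr8), with the 5p strand and then the 3p strand in capitals.
Mir148a: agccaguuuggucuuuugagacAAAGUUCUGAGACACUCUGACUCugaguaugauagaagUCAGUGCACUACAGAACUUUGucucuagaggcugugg

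In that annotation Mir148a overlapped no other gene and lay between the protein-coding genes Npvf and LOC102549423. Mir148b, on chromosome 7, lay within the span of Copz1, and Mir152, on chromosome 10, lay within that of Copz2; these encode related coat-protein subunits.

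Of the 481 rat-named rows with a RefSeq sequence, 3 had CAGUGCA at bases 2 to 8, the 3p strands of the family. Another 3 began with the same letters at bases 1 to 7, which is a shifted seed and not the same one. They are shown for that shift, with CAGUGCA in capitals.
miR-130a-3p: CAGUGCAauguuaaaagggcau
miR-130b-3p: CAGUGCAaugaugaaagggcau
miR-301b-3p: CAGUGCAaugguauugucaaagc

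The most abundant of these, miR-130a-3p, averaged 37.8 CPM over the 11 rats. The others averaged 0.640 CPM for miR-130b-3p and 0.0923 CPM for miR-301b-3p. Among the rows with a RefSeq sequence, nearly all reads with these letters at the 5′ end were therefore miR-148a-3p. Rows without a RefSeq sequence, the predicted microRNAs among them, could not be searched.

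The libraries held between 1404858 reads (Control 12) and 14788757 reads (TPN 8) in the rows of the table. Control 5, 12 and 19 had the fewest reads, and they also had 0.517% to 1.996% of reads in predicted microRNAs, against 0.0965% to 0.145% in the other libraries. The comparisons between groups are also given without them where the value moves by over 1.5 times or a call changes. The hepatocyte microRNA miR-122-5p, the defining marker of the labelled tissue, took 2.18% to 33.5% of the reads and ranked below miR-148a-3p in every library. Levels are relative to all reads of a library, and in whole liver fewer cells of a type and less RNA per cell cannot be told apart.

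The strand rno-miR-148a-3p (rno marks the rat in the table's names) was the most abundant microRNA in all 11 livers. It took 570935, 439880, 523790, 382103, 376313 and 572421 CPM in Control 5, 7, 12, 16, 18 and 19. In TPN 6, 8, 11, 15 and 16 it took 649587, 631031, 521905, 475186 and 537335 CPM. The highest values were in TPN 6 and TPN 8, the lowest in Control 16 and 18, and the groups overlapped. Its coefficient of variation over the 11 rats was 17.6%, the 2nd lowest among the 24 rat-named rows averaging 1000 CPM or more, whose median was 34.2%. A row that holds much of a library cannot vary as freely as a small one, since the rows sum to a fixed total.

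The family as a whole took 48.3% ± 9.13 of the Control reads (SD, n = 6) and 56.8% ± 7.60 of the TPN reads (SD, n = 5). It ranged from 38.01% to 57.8% in Control and from 47.9% to 65.6% in TPN. miR-148a-3p supplied 98.7% to 99.3% of the family's reads in each liver. The other 5 members together took 0.524% ± 0.143 of the Control reads and 0.501% ± 0.156 of the TPN reads.

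**Figure D1:**
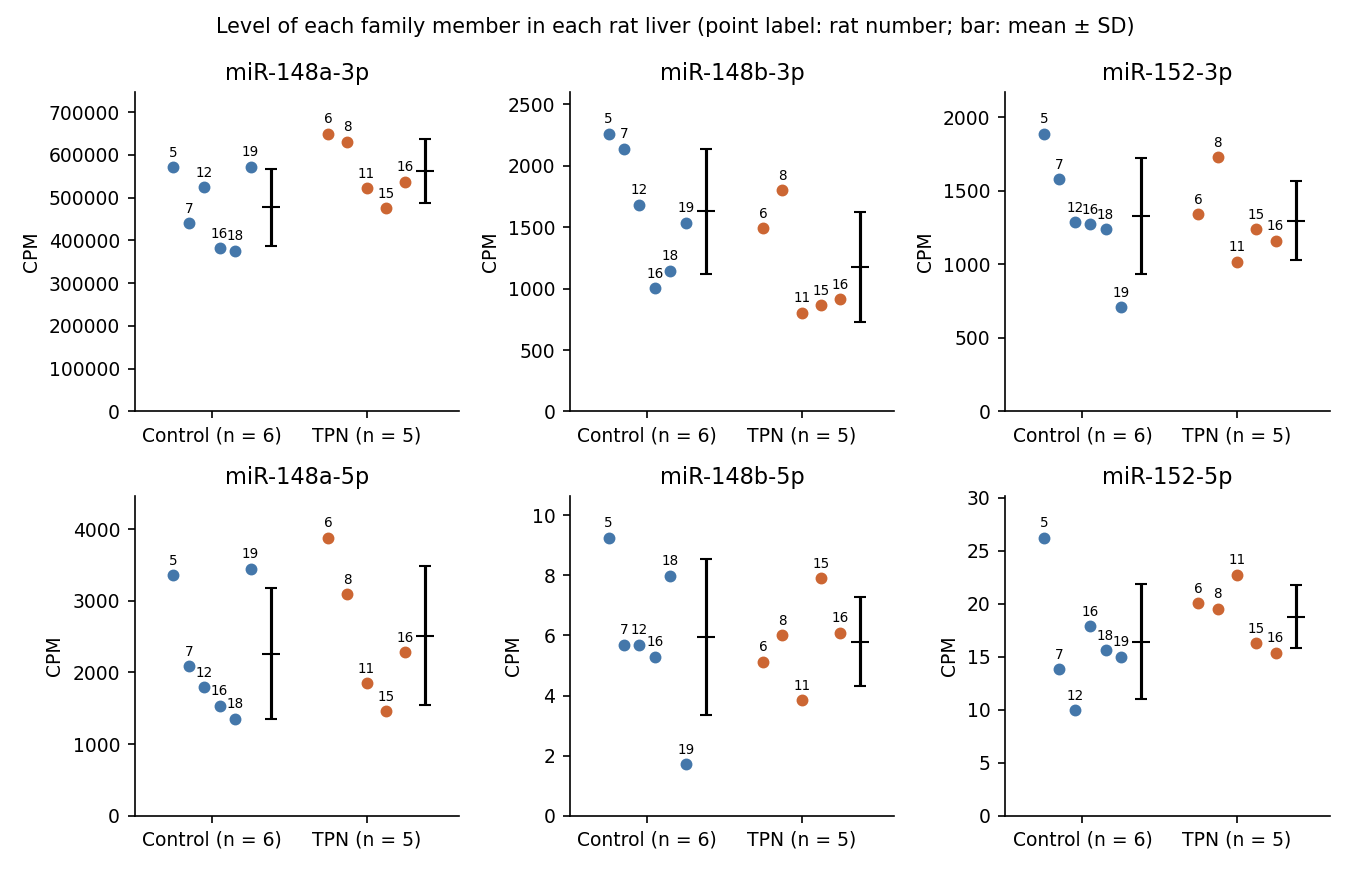
Level of each of the 6 members in every rat, in CPM on linear axes that start at 0, 1 panel per member; points are rats labelled by number, and bars show the mean ± SD of the 6 Control and 5 TPN rats. The groups overlap in every panel, and for miR-148b-3p TPN 11, 15 and 16 lie below every Control rat.

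The other strand of the same hairpin, rno-miR-148a-5p, ran from 1354 to 3450 CPM in Control with a median of 1941 CPM. In TPN 6, 8, 11, 15 and 16 it stood at 3879, 3089, 1853, 1459 and 2286 CPM. The livers with much miR-148a-3p were high here too: TPN 6, Control 19, Control 5 and TPN 8 led. It ranked between 13 and 20 among the 533 rat-named rows.

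The 3p strand of the gene within Copz1, rno-miR-148b-3p, ran from 1005 to 2261 CPM in Control with a median of 1610 CPM. In TPN 6, 8, 11, 15 and 16 it stood at 1492, 1800, 803, 864 and 911 CPM. The 3 lowest livers were TPN 11, 15 and 16, whereas TPN 8 lay above the Control median. Its 5p partner was rare, at 1.71 to 9.25 CPM in Control and 3.85 to 7.90 CPM in TPN. The lowest of these, 1.71 CPM in Control 19, had an exact Clopper-Pearson 95% interval of 0.554 to 3.98 CPM from counting alone, so the arms of Mir148b could not be compared closely in single livers.

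The 3p strand of the gene within Copz2, rno-miR-152-3p, ran from 710 to 1890 CPM in Control with a median of 1280 CPM. In TPN 6, 8, 11, 15 and 16 it stood at 1343, 1728, 1019, 1240 and 1160 CPM, all inside the Control range. The single low liver was Control 19, which was at the same time the highest Control for both strands of Mir148a. miR-152-5p ran from 9.97 to 26.2 CPM in Control with a median of 15.3 CPM, and from 15.4 to 22.7 CPM in TPN. All 5 TPN rats were above the Control median for miR-152-5p, and the group means of 16.4 and 18.8 CPM differed by less than the Control SD of 5.46.

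The order of the levels was tested within each rat with a 2-sided exact sign-flip permutation test over the 11 rats, for 5 neighbouring pairs. The pairs were neighbours in the order of mean CPM over the same rats, so the p-values do not cover that choice. The levels are read numbers of strands of 21 to 23 bases, so no length correction applies. How evenly strands of different sequence were turned into reads was not measured. A constant difference of that kind would repeat in every rat, so the test orders reads and not molecules. miR-148a-3p exceeded miR-148a-5p by 228-fold in 11 of 11 rats (exact p = 0.000977, the smallest possible; adjusted p = 0.00163). miR-148a-5p exceeded miR-148b-3p by 1.66-fold in 10 of 11 rats (exact p = 0.00195, adjusted p = 0.00244). This excess was 1.36-fold in Control, in 5 of 6 rats, and 2.13-fold in TPN, in 5 of 5. miR-148b-3p and miR-152-3p could not be put in order: miR-148b-3p was higher in 6 of 11 rats (exact p = 0.676). miR-152-3p was above miR-152-5p in 11 of 11 rats, and miR-152-5p was above miR-148b-5p by 2.76-fold in 11 of 11 (both exact p = 0.000977).

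In limma-trend, no member was called different between TPN and Control livers. Fitted to log2(CPM + 1) with Benjamini-Hochberg adjustment over all 535 rows, 0 of 6 members passed an adjusted p of 0.05, and 0 of the 535 rows did (0.0%). At an unadjusted p under 0.05, 0 of 6 members and 61 of the 535 rows (11.4%) passed. On the log2 scale miR-148a-3p differed by 0.25 ± 0.23 (SE; 95% interval -0.26 to 0.76, limma-trend adjusted p = 0.509). For miR-148b-3p the difference was -0.49 ± 0.29 (interval -1.11 to 0.14, adjusted p = 0.311). The others were 0.16 ± 0.32 for miR-148a-5p, 0.05 ± 0.35 for miR-148b-5p, 0.00 ± 0.25 for miR-152-3p and 0.23 ± 0.26 for miR-152-5p. All 6 intervals held 0. Without Control 5, 12 and 19 the values were 0.49 for miR-148a-3p, 0.54 for miR-148a-5p, -0.28 for miR-148b-3p, -0.12 for miR-148b-5p and -0.086 for miR-152-3p, and no row was called.

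The scale decides the sign of some changes here. In the deposited CPM the median log2 difference of the 280 tested rat-named rows was -0.26, with 58 above 0, whereas 5 of the 6 members were above 0 with a median of 0.11. With TMM scaling the median of the rat-named rows moved to 0.16, and with upper-quartile scaling to 0.31. miR-148a-3p was 13th highest of the 280 in the deposited CPM, which is 0.51 above their median, and it was 0.57 above it with TMM and 0.60 with upper-quartile scaling. Its own log2 fold change was 0.73 with TMM (unadjusted p = 0.00213, adjusted p = 0.405 in limma-trend) and 0.90 with upper-quartile scaling (adjusted p = 0.343). At an unadjusted p under 0.05 stood 3 of 6 members and 35 of 535 rows with TMM, and 4 of 6 members and 49 rows with upper-quartile scaling. No row was called under either, nor with RLE scaling. miR-148b-3p lay below the median of the rat-named rows under the deposited CPM, TMM and upper-quartile scales, and its log2 fold change was -0.01 with TMM and 0.17 with upper-quartile scaling.

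Tests on the recovered reads differed among themselves for miR-148a-3p. DESeq2 put it at 0.57 ± 0.15 (adjusted p = 0.00356), the only call on a member by any of these tools; it called 5 of 535 rows higher in TPN (0.935%) and 108 lower (20.2%). edgeR's quasi-likelihood test gave 0.74 (adjusted p = 0.105), and limma-voom gave 0.73 (adjusted p = 0.145). DESeq2 called 21.1% of the rows in either direction, and edgeR and limma-voom called none (0.0% each). At an unadjusted p under 0.05 stood 3 of 6 members and 31.4% of all rows in edgeR, 2 of 6 and 35.9% in DESeq2, and 3 of 6 and 2.62% in limma-voom.

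**Figure D2:**
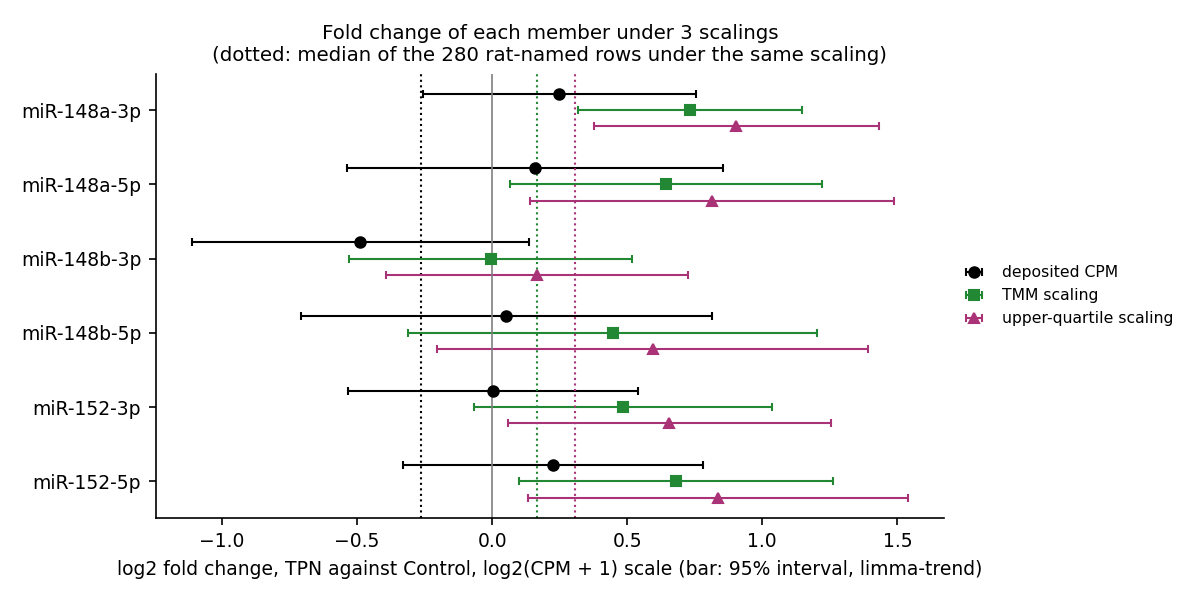
Log2 fold change (TPN against Control, log2(CPM + 1) scale) of each member in limma-trend with the deposited CPM, TMM and upper-quartile scaling; bars are 95% intervals, and dotted lines give the median of the 280 rat-named rows under the same scaling. Members shift together with that median, and miR-148b-3p is the member below it under all 3 scalings.

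The main test of abundance was the share of all reads taken by miR-148a-3p. It was 47.8% ± 9.02 in Control (n = 6) and 56.3% ± 7.45 in TPN (n = 5), with 4 of 5 TPN rats above the Control median. The difference of 8.54 percentage points missed the threshold of 0.05 (exact permutation p = 0.128, 2-sided; the smallest possible is 0.00216). Leaving out each rat in turn gave 6.38 to 10.7 points and p from 0.081 to 0.248. Without Control 5, 12 and 19, which were the 3 Control rats with the highest shares, it was 16.4 points (exact p = 0.0357).

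Where miR-148a-3p was low, miR-122-5p was often high: Control 16 and 18, with the lowest miR-148a-3p, had 33.4% and 33.5% of their reads in miR-122-5p, and Control 19 and TPN 6 had 2.18% and 2.54%. Control 7 was an exception, with 44.0% in miR-148a-3p and 5.87% in miR-122-5p. In both groups it varied widely, with a mean of 15.7% ± 14.2 in Control and 13.7% ± 9.30 in TPN. The share of miR-148a-3p was therefore also taken over the reads other than miR-122-5p, an alternative chosen with earlier results of these data known. It was 61.2%, 46.7%, 59.9%, 57.4%, 56.6% and 58.5% in Control 5, 7, 12, 16, 18 and 19. In TPN 6, 8, 11, 15 and 16 it was 66.7%, 66.5%, 65.8%, 61.5% and 65.3%. All TPN rats lay above all Control rats, although TPN 15 and Control 5 were only 0.303 points apart. The difference was 8.39 points (exact p = 0.00433), and leaving out each rat gave 6.39 to 9.29 points with p of at most 0.00952. The same complete separation upwards occurred in 1 of 279 rat-named rows (0.358%), which was miR-148a-3p itself, and downwards in 7 (2.51%). At an exact p under 0.05, 2 of these rows (0.717%) were higher in TPN and 54 (19.4%) lower.

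This result rests on the choice of denominator. When each of 9 abundant microRNAs was left out of the total in turn, the difference stayed between 7.71 and 8.76 points, but the other 8 denominators gave exact p from 0.115 to 0.242. Adjusted over the 9, the permutation p for miR-122-5p was 0.039. The 9 denominators were chosen with results of these data known, so the adjustment does not cover that choice. On the log2 scale over reads other than miR-122-5p, limma-trend gave miR-148a-3p 0.20 ± 0.15 (adjusted p = 0.355) and called 0 of 534 rows (0.0%); 15.4% of them, and 1 of 6 members, had an unadjusted p under 0.05. That member was miR-148b-3p, at -0.53 ± 0.22 (unadjusted p = 0.028, adjusted p = 0.258).

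**Figure D3:**
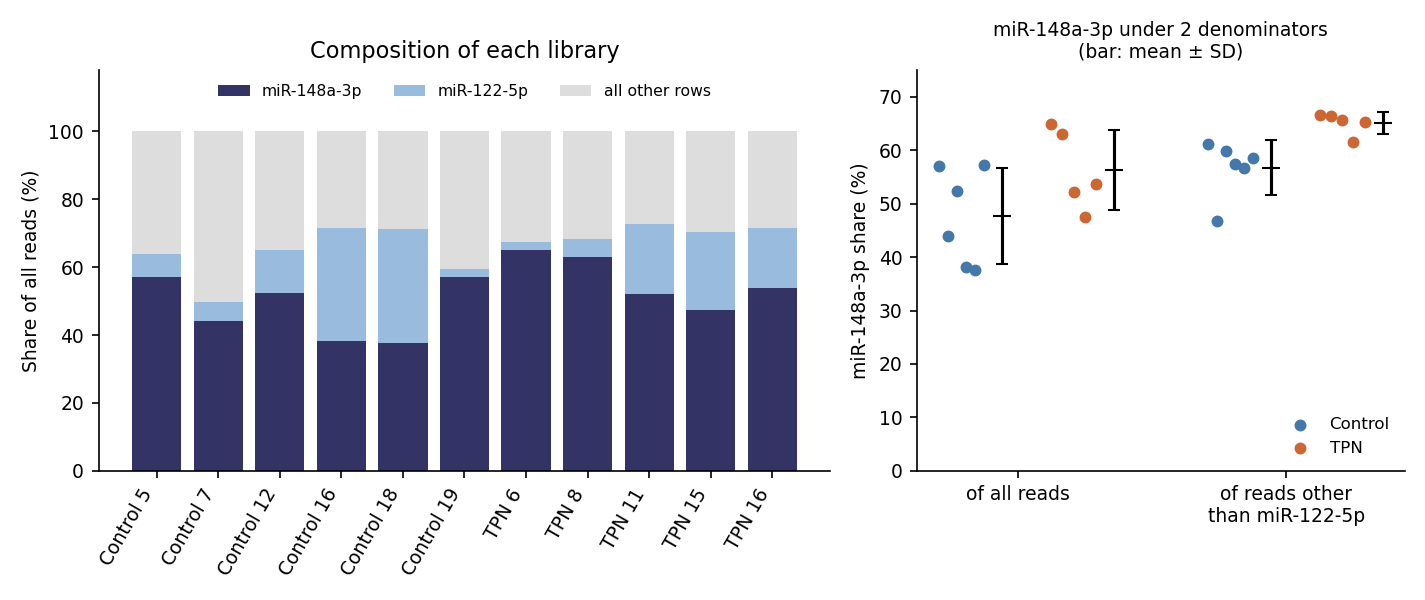
Left, the share of each rat's reads, in percent, taken by miR-148a-3p, miR-122-5p and all other rows; right, the share of miR-148a-3p per rat over all reads and over reads other than miR-122-5p, with bars for mean ± SD. The latter runs from 46.7% to 61.2% in Control and from 61.5% to 66.7% in TPN, while the shares of all reads overlap.

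The strands of a hairpin are made together, and the ratio of its arms within a library is free of that library's scaling. The tested ratios add 1 CPM to each arm, so they are not fully free of it where an arm is rare, as for miR-148b-5p. With 0.1 CPM added, the log2 difference of the miR-148b ratio was -0.58. Over the 11 rats the 3p strand of miR-148a exceeded its 5p strand by 166 to 326 times, that of miR-148b by 109 to 901 times, and that of miR-152 by 44.8 to 129 times. The 901 was in Control 19, where miR-148b-5p had 5 reads. None of these ratios passed between the groups: the log2 differences (TPN minus Control) were 0.09 for miR-148a (exact p = 0.677), -0.54 for miR-148b (exact p = 0.229) and -0.22 for miR-152 (exact p = 0.455). Leaving out 1 rat moved these to between -0.026 (without TPN 15) and 0.21 for miR-148a, between -0.73 and -0.30 (without Control 19) for miR-148b, and between -0.38 (without Control 19) and -0.073 (without TPN 11) for miR-152. Without Control 5, 12 and 19 they were -0.048, -0.16 and -0.32. The p stayed above 0.05 in all of these. The 5p strand of miR-148a was 0.306% to 0.599% of the hairpin's reads, with Control and TPN rats interleaved.

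Among the 3p strands, miR-148b-3p stood lower against miR-148a-3p in TPN. As a percentage of miR-148a-3p it was 0.396%, 0.486%, 0.321%, 0.263%, 0.305% and 0.268% in Control 5, 7, 12, 16, 18 and 19. In TPN 6, 8, 11, 15 and 16 it was 0.230%, 0.285%, 0.154%, 0.182% and 0.170%. TPN 8 alone lay inside the Control range, and all 5 TPN rats were below the Control median. The log2 difference was -0.74 (2-sided exact permutation p = 0.00866). Adjusted over the 6 ratios tested it was 0.0519, so it missed the threshold of 0.05. Without Control 5, 12 and 19 the difference was -0.77 with an exact p of 0.0536.

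A lower ratio to miR-148a-3p was common in the table. Of the 279 other rat-named rows, 96 (34.4%) had a lower ratio to miR-148a-3p in TPN at an exact p under 0.05, and 42 (15.1%) at a p no greater than that of miR-148b-3p. The median log2 difference of the ratio over these rows was -0.51, with 267 below 0, and miR-148b-3p ranked 81st from the lowest. miR-152-3p against miR-148a-3p differed by -0.25 (exact p = 0.431, adjusted p = 0.545). Control 19 was far below the other Control rats in this ratio; without it the difference was -0.47 (exact p = 0.0238), and without Control 5, 12 and 19 it was -0.58. miR-152-3p against miR-148b-3p differed by 0.49 (exact p = 0.0779, adjusted p = 0.234). Without Control 5, 12 and 19 it was 0.19 (exact p = 0.446), and leaving out 1 rat gave 0.33 to 0.62, with an exact p under 0.05 without Control 16 or Control 18.

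**Figure D4:**
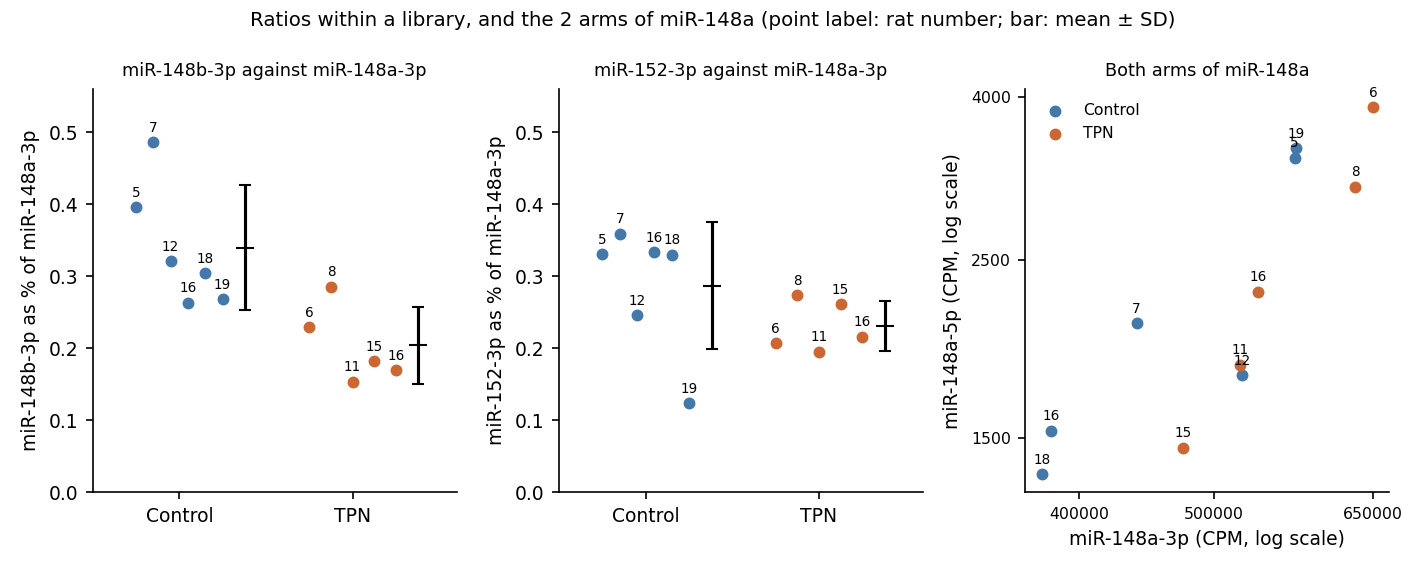
Left and middle, miR-148b-3p and miR-152-3p as a percentage of miR-148a-3p in each rat, with bars for mean ± SD; right, the arms of miR-148a against each other in CPM on log axes, points labelled by rat number. For miR-148b-3p, 4 of 5 TPN rats lie below all Control rats, Control 19 is the low point for miR-152-3p at 0.124%, and the arms rise together over rats of both groups.

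Rats numbered below 10 (2 in each group) had more miR-148b-3p than the rest of their group; the labels do not say what the numbers stand for, and this split was made after the values were seen. Within both ranges of number, every TPN rat had less miR-148b-3p than every Control rat, as in 31 of 280 rat-named rows (11.1%); the opposite held in 1 (0.357%), and for the ratio to miR-148a-3p 57 of 279 rows (20.4%) were lower in this way. Because the split was chosen on the values of miR-148b-3p, this is a description and no p is given for it. With the range as a covariate, limma-trend called 0 of 535 rows (0.0%), with 63 (11.8%) at an unadjusted p under 0.05. For the share of miR-148a-3p, the difference was 13.5 points below number 10 and 4.78 points from 10 upward.

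Over rats, the levels of both strands of Mir148a were correlated. Their log2(CPM + 1) levels had a Pearson r of 0.853 over the 11 rats (permutation p = 0.00089, adjusted over 10 pairs of members 0.0089) and a Spearman rho of 0.891 (permutation p = 0.00048, adjusted 0.0048). Without Control 16 and 18, farthest from the median, r was 0.802. Among the 6 Control rats r was 0.881 (exact permutation p = 0.0319, adjusted 0.319), and among the 7 rats numbered 10 or more it was 0.777 (exact permutation p = 0.0365, adjusted 0.122). Correlations were computed over at least 6 rats, so none is given for TPN alone. miR-148b-3p and miR-152-3p had a rho of 0.764 (permutation p = 0.0089, adjusted 0.0445) but an r of 0.501 (permutation p = 0.115, adjusted 0.382). In the 7 rats numbered 10 or more their rho was 0.393 (exact permutation p = 0.396) and their r -0.279 (exact permutation p = 0.612), or 0.690 without Control 12 and 19, so the sign of r there rests on those rats. Over reads other than miR-148a-3p, with 6 pairs tested over the 11 rats, this pair had an r of 0.716 (permutation p adjusted 0.0323). On that scale miR-148a-5p also passed with miR-148b-3p (r 0.785, permutation p adjusted 0.0311) and with miR-152-5p (r 0.748, permutation p adjusted 0.0311). Both members of a pair are divided there by the same number of reads, which can raise r by itself, and r was higher than in CPM for every pair. The permutation does not keep that link, so these p-values cannot show that the members move together. In CPM, miR-148a-3p had an r of 0.339 with miR-148b-3p (permutation p = 0.300) and 0.048 with miR-152-3p (permutation p = 0.889).

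Outside the family, the rows most like each 3p strand were found by Spearman rho over the 11 rats after removing group means, among 163 rat-named rows averaging 10 CPM or more. They are a description, since all rows share the depth and the fixed total of a library. For miR-148a-3p they were miR-16-5p (rho 0.936), miR-30c-2-3p (0.909) and miR-26a-5p (0.909). For miR-148b-3p they were miR-103-3p (0.946), miR-3559-5p (0.909) and miR-340-5p (0.900). For miR-152-3p they were miR-1839-5p (0.873), miR-106b-3p (0.873) and miR-122-3p (0.864). No row was among the 3 nearest of more than 1 member.

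Other microRNAs published as repressors of the LDL receptor, ABCA1 or other cholesterol genes were taken as a list, miR-33, miR-128, miR-130b, miR-301b, miR-27b, miR-185, miR-144 and miR-223. Of its 14 rows 9 were tested and 0 were called, with 1 above 0 and 8 below and a median log2 fold change of -0.37, beside -0.26 for all rat-named rows; with TMM the median was 0.10 beside 0.16. Its most abundant member, miR-27b-3p, averaged 5279 ± 1398 CPM in Control and 4799 ± 1054 CPM in TPN. miR-185-5p averaged 42.6 ± 15.8 and 30.8 ± 3.47 CPM, and miR-128-3p 32.4 ± 17.7 and 29.99 ± 10.99 CPM. All 3 were far below miR-148a-3p in CPM.

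The miR-29 family, which represses the DNA methyltransferases DNMT3A and DNMT3B in human cells, had 6 rows, of which 4 were tested and 0 called, 1 above 0 and 3 below, with a median of -0.10. miR-29a-3p averaged 262 ± 41.7 CPM in Control and 259 ± 36.4 CPM in TPN (log2 fold change -0.02 ± 0.18).

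Marker microRNAs of the cells in liver were summed beside these results, and their part in them was not tested. The 8 hepatocyte rows held 5.41% to 41.4% of reads in Control and 6.64% to 29.6% in TPN. The 4 red blood cell rows held 0.0133% to 0.0802% in Control and 0.00313% to 0.0261% in TPN, with 3 of 3 tested rows below 0 and a median of -1.21 in the deposited CPM, -0.86 with TMM and -0.74 with upper-quartile scaling. Their main row, miR-451-5p, differed by -2.35 ± 0.63 on the log2 scale (limma-trend adjusted p = 0.296). The 8 epithelial rows held 0.0509% to 0.123% in Control and 0.0584% to 0.176% in TPN. The 7 rows of stellate cells, fibroblasts and smooth muscle held 1.87% to 3.77% and 1.27% to 2.81%, with 7 of 7 below 0 in the deposited CPM, where only 58 of the 280 rat-named rows were above 0. Their median log2 difference was -0.43 on that scale, 0.05 with TMM and 0.22 with upper-quartile scaling. The 10 immune rows held 0.0180% to 0.0342% and 0.0159% to 0.0237%, and the 2 endothelial rows 0.202% to 0.685% and 0.316% to 0.657%. In the deposited CPM, 7 of 8 tested hepatocyte rows and 7 of 8 tested immune rows were also below 0. Of the tested epithelial rows 2 of 7 were below 0, and of the endothelial rows 1 of 2. No row of these lists was at 0 in all libraries, and 0 were called.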

How the data were processed

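Small RNA of liver was sequenced on an Illumina instrument after TRIzol extraction, per the labels' protocols. The deposited values are CPM, 1 column per rat, each column summing to 1000000. The submitters' processing notes name DESeq2 and give no role for it. Tools for trimming, alignment and counting were not given in the sources used here. All non-zero values were multiples of the value of 1 read (100% whole within 0.001), so reads were recovered, and a count of 0 allows up to 3 reads, 0.203 to 2.14 CPM. Intervals and limits cover counting error only.

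limma-trend (limma 3.58.1, R 4.3.3) was fitted to log2(CPM + 1) of rows averaging 1 CPM or more, 6 Control against 5 TPN, without covariates, so fold changes of low rows are understated. Shares and log2((CPM + 1)/(CPM + 1)) ratios were compared with 2-sided exact permutation tests (numpy 2.4.6, scipy 1.17.1). On the recovered reads, edgeR 4.0.16, DESeq2 1.42.0 and limma-voom called 0, 113 and 0 rows. The fits were tested on simulated data in which the most abundant rows, miR-148a-3p among them, were given no change. All libraries differed by more than sampling noise, the closest being Control 16 and 18 (chi-square per degree of freedom 73.4). The rule named all members, the 3 rows most like each 3p strand, rows with CAGUGCA at bases 2 to 8 or 1 to 7, and up to 3 members of each list. The members, lists and other settings were chosen with earlier results of these data known; the split by rat number and the 8 denominators other than miR-122-5p were added after values were seen.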

Additional observations from a re-analysis of the deposited data

Results flagged for a closer look

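In 3 of 26 groups of values tested, 1 rat lay apart from the rest of its group, by the gap to its nearest neighbour relative to the group's range; chance flags about 1 in 20 such groups. In the share of miR-148a-3p among reads other than miR-122-5p, Control 7 stood at 46.7% with its nearest neighbour at 56.6%. In the same measure TPN 15 stood at 61.5% with its nearest neighbour at 65.3%. In the log2 ratio of miR-152-3p to miR-148a-3p, Control 19 stood at -9.65 with its nearest neighbour at -8.67. Control 19 is among the 3 Control libraries with few reads and many predicted microRNAs; whether that bears on its ratio was not tested.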

How the results depend on the processing

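Under the other settings 289 recomputed values kept their direction and, where a test was made, their side of the threshold. Of the rest, 19 changed sign, 10 newly passed, 6 no longer passed and 1 count moved. The threshold of 0.05 applied here to adjusted p for fold changes and correlations. For shares, ratios and order tests it applied to the unadjusted exact p. Order tests within TPN were among the 6, and with 5 rats their exact sign-flip p could not fall below 0.0625. Another was miR-148a-5p above miR-148b-3p within Control (exact sign-flip p = 0.0625), where the smallest possible was 0.03125. No test was made within the ranges of rat number. DESeq2 called 113 rows against 0 in limma-trend, and miR-148a-3p at 0.57. The share of miR-148a-3p passed its test as 8.39 points among reads other than miR-122-5p and as 16.4 points without Control 5, 12 and 19; leaving out 1 rat gave 6.38 to 10.7 points. Some log2 fold changes changed sign. miR-148b-3p, at -0.49 in the deposited CPM, was -0.01 with TMM, 0.17 with upper-quartile scaling and 0.012 in edgeR. miR-148b-5p was -0.12 without Control 5, 12 and 19, and -0.20 to 0.19 leaving out 1 rat. miR-152-3p was -0.0043 among rat-named rows only, -0.043 over reads other than miR-122-5p, -0.034 with rat number as a covariate, -0.086 without Control 5, 12 and 19, and -0.17 to 0.12 leaving out 1 rat. miR-148a-5p was -0.019 to 0.33 leaving out 1 rat. The arm ratio of miR-148a was -0.048 without Control 5, 12 and 19, -0.034 in rats numbered below 10, and -0.026 to 0.21 leaving out 1 rat. The ratio of miR-148b-3p to miR-148a-3p lost its unadjusted p under 0.05 without Control 5, 12 and 19 (-0.77), where 3 Control rats remained. The ratio of miR-152-3p to miR-148a-3p passed without Control 5, 12 and 19 (-0.58), and was -0.47 to -0.17 leaving out 1 rat. The ratio of miR-152-3p to miR-148b-3p was 0.33 to 0.62 leaving out 1 rat, with p under 0.05 without Control 16 or Control 18. miR-148b-3p over miR-152-3p was -0.20 within TPN, and r of miR-148b-3p with miR-152-5p was 0.42 over reads other than miR-148a-3p, against -0.039. The causes were not tested. No paired analysis was possible because Control and TPN share only rat number 16. Depth limited miR-148b-5p most.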
